A study of Mus musculus with 2 samples.

Results

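A set of 8 genes that restrain Wnt signalling outside the cell or at its surface were followed in intestinal adenoma organoids: Wif1, Dkk2, Dkk3, Sfrp1, Sfrp2, Sfrp5, Frzb and Kremen1. They were picked by symbol, and all 8 were present among the 27514 genes shared by both feature tables. The organoids were grown from adenomas of C57BL/6 mice aged 17 weeks with the genotype ApcMin/+, in which 1 copy of the tumour suppressor gene Apc carries the Min mutation. The control culture received no added fusion protein. The other culture received RSPO1-Fc, the Wnt agonist R-spondin 1 joined to an antibody Fc part, at 10 µg/ml per the treatment protocol, although a second label of that sample writes the same figure in milligrams. Both cultures carry ApcMin/+, so no group with intact Apc was measured. Each group was 1 single-cell 3′ library, so no difference between the groups has a replicate check and no p-value is given.

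Wnt ligands bind Frizzled receptors together with the coreceptors Lrp5 and Lrp6, which stabilizes β-catenin and switches on target genes through TCF and LEF factors. Apc belongs to the complex that degrades β-catenin, and its loss starts most intestinal adenomas. Wif1 and the secreted Frizzled-related proteins, Sfrp1, Sfrp2, Sfrp5 and Frzb, bind Wnt ligands in the extracellular space. Dkk2 binds the Lrp coreceptors, Dkk3 is a divergent member of the Dickkopf family that binds them poorly if at all, and Kremen1 is a membrane receptor for Dickkopf proteins. Kremen1 is therefore not itself a secreted antagonist.

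In the GENCODE M21 annotation of GRCm38 (mm10) all 8 are protein-coding, and none overlaps another annotated gene on its own strand. Wif1 lies on chromosome 10 at 121033960 to 121100650 on the plus strand, with 10 exons in its longest coding transcript. Dkk2 lies on chromosome 3 at 132085292 to 132180304 (plus, 4 exons) and Dkk3 on chromosome 7 at 112116017 to 112159057 (minus, 8 exons). Sfrp1 lies on chromosome 8 at 23411502 to 23449632 (plus, 3 exons), Sfrp2 on chromosome 3 at 83766321 to 83774316 (plus, 3 exons) and Sfrp5 on chromosome 19 at 42197971 to 42202252 (minus, 3 exons). Frzb lies on chromosome 2 at 80411970 to 80447625 (minus, 6 exons) and Kremen1 on chromosome 11 at 5191552 to 5261558 (minus, 9 exons). Sfrp2 and Kremen1 each overlap 1 annotated gene on the opposite strand, Gm26771 and Gm25142.

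Promoter sequences from RefSeq (GRCm38.p6) matched 5 of the 8 genes, and Dkk3, Sfrp1 and Kremen1 had no entry. The bases upstream of the annotated start are shown for Wif1 and Dkk2, which were high in control epithelium and low with RSPO1-Fc, for Sfrp5, the gene whose epithelial level was higher with RSPO1-Fc, and for Sfrp2, which was found mainly in fibroblast-like cells. Capitals mark CTTTG, the core of the TCF/LEF motif, and TATAAA, the TATA box, on either strand. All are written 5′ to 3′ on the strand of the gene.
Wif1 (chr10:121033754-121033959, plus): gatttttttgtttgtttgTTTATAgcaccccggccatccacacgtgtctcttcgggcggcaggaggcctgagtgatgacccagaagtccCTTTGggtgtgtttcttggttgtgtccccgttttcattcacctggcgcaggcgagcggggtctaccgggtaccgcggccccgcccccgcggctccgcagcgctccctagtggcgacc
Dkk2 (chr3:132085042-132085291, plus): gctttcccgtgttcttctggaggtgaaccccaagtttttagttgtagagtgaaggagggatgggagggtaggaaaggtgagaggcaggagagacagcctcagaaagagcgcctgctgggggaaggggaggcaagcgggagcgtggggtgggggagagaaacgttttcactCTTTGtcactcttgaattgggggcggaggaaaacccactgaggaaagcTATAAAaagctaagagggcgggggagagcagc
Sfrp5 (chr19:42202253-42202502, minus): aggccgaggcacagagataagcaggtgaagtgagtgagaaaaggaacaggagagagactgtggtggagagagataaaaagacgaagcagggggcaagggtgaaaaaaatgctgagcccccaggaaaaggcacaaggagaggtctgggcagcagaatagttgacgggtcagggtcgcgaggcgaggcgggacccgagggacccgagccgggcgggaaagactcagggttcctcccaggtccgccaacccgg
Sfrp2 (chr3:83766071-83766320, plus): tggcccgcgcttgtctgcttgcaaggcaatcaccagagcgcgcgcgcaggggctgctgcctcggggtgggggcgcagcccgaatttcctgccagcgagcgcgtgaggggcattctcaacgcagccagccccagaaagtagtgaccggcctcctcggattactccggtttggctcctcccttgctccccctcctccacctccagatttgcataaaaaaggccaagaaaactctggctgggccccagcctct

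Over the 250 bases before the RefSeq start, Wif1, Dkk2 and Frzb each held 1 CTTTG core, while Sfrp2 and Sfrp5 held 0. The core was present in 48.6% of 32851 promoters of this length, so it does not set these genes apart. The longer forms CTTTGAA and CTTTGAT, searched on both strands, were in 0 of the 5 windows and in 4.46% and 3.21% of all promoters. These letters contain the core and so overlap it. TATAAA occurred once in Wif1 and once in Dkk2, at positions -232 and -32 from the start, and in 12.4% of all promoters. The Wif1 window held 21 CpG dinucleotides and 62.8% G and C, against a median of 6 and 52.4% over all promoters, whereas Dkk2 held 7 and 55.6%. A match in letters is a description of the sequence and says nothing of binding.

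The control library held 91675581 unique molecular identifiers (UMIs), each standing for 1 captured transcript, and the RSPO1-Fc library 89437327. Barcodes with at least 9810 UMIs (control) or 5960 UMIs (RSPO1-Fc) were taken as cells, 2269 and 2767 in number, and shared 0 barcodes between libraries. A cell with at least 5 UMIs of Epcam, the epithelial adhesion gene, was called epithelial, which gave 1881 control cells (median 27736 UMIs) and 2751 RSPO1-Fc cells (median 23548). The 388 control cells below 5 Epcam UMIs are called non-epithelial, and 300 of them held 0. All 6 epithelial markers were found in both epithelial sets, at a summed 7665 and 9487 UMIs per 1000000 (CPM, summed over the cells of a set). In 2 control epithelial clusters markers of other cells were also high, 9 of 9 of macrophages in cluster 7 and 7 of 7 of endothelium in cluster 10, whose leading genes Dcn, Col3a1, Col1a1 and Col1a2 are fibroblast markers (76 cells in both). Results that move by over 1.5 times without them are given both ways. The cultures also differed in genes of sex and gut segment: Xist stood at 1507 CPM in control and 0.0427 CPM in RSPO1-Fc epithelium, the Y-linked Ddx3y at 0 and 33.7, the posterior homeobox gene Hoxb13 at 105 and 0, and the proximal factor Gata4 at 0.0149 and 44.0. The make-up of the cultures differed too: cells with under 5 Epcam UMIs were 17.1% of control but 0.578% of RSPO1-Fc cells. The latter were 16 cells, in which all 6 epithelial markers were found. Mean reads per cell, as given for each library, were higher with RSPO1-Fc. Sex, gut segment, culture make-up, read depth and the library's format therefore cannot be told apart from RSPO1-Fc in any comparison between the libraries. Ranges in parentheses are 95% intervals of counting error alone.

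Wif1 transcripts were abundant in control adenoma epithelium and rare with RSPO1-Fc. The control cells held 62019 Wif1 UMIs, or 927 CPM, and the RSPO1-Fc cells held 949, or 13.5 CPM. The level was 68.7-fold lower (64.4 to 73.3), a log2 ratio of -6.00. The median control cell carried 22 Wif1 UMIs, 1395 of 1881 cells carried 10 or more and the highest carried 248. With RSPO1-Fc the median was 0, 24 of 2751 cells carried 10 or more and the highest carried 46. Per-cell counts of the libraries overlapped from 0 to 46 UMIs. With each cell thinned to 5000 UMIs, Wif1 was seen in 83.0% (81.3 to 84.7) of control and 4.33% (3.60 to 5.15) of RSPO1-Fc epithelial cells, against 93.4% and 9.60% without thinning. Macrophage-like cells of the control library, a type not expected to make Wif1, gave a thinned share of 4.91% (2.14 to 9.44) and a level of 12.0 CPM (8.13 to 17.2). The RSPO1-Fc share over all epithelial cells was no higher than in these control cells. Free Wif1 RNA differed between the libraries: in barcodes with too few UMIs for a cell, Wif1 was 7.53 CPM with RSPO1-Fc against 502 CPM in control.

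Dkk2 and Dkk3 followed the same direction. Dkk2 stood at 164 CPM in control and 12.3 CPM in RSPO1-Fc epithelium, which was 13.3-fold lower (12.4 to 14.3). It was spread unevenly among control cells: 853 of 1881 carried 0 Dkk2 UMIs, 388 carried 10 or more, and the 10% of cells with the most held 53.9% of its UMIs, against 35.4% for Wif1. Dkk3 stood at 84.2 and 6.87 CPM, 12.3-fold lower (11.2 to 13.5), and 126 control cells but 7 RSPO1-Fc cells carried 10 or more UMIs. After thinning, Dkk2 was seen in 35.2% of control and 4.69% of RSPO1-Fc cells, and Dkk3 in 29.8% and 3.31%. The share in macrophage-like control cells was 2.45% (0.673 to 6.16) for Dkk2 and 3.07% (1.00 to 7.01) for Dkk3.

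Wif1, Dkk2 and Dkk3 were the only members with at least 20 CPM in either library, and all 3 were at least 2-fold lower with RSPO1-Fc. Over the 6911 genes with that level 18.7% were as much lower and 7.23% as much higher, with a median log2 ratio of -0.18. The 3 members had a median of -3.63.

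**Figure D1:**
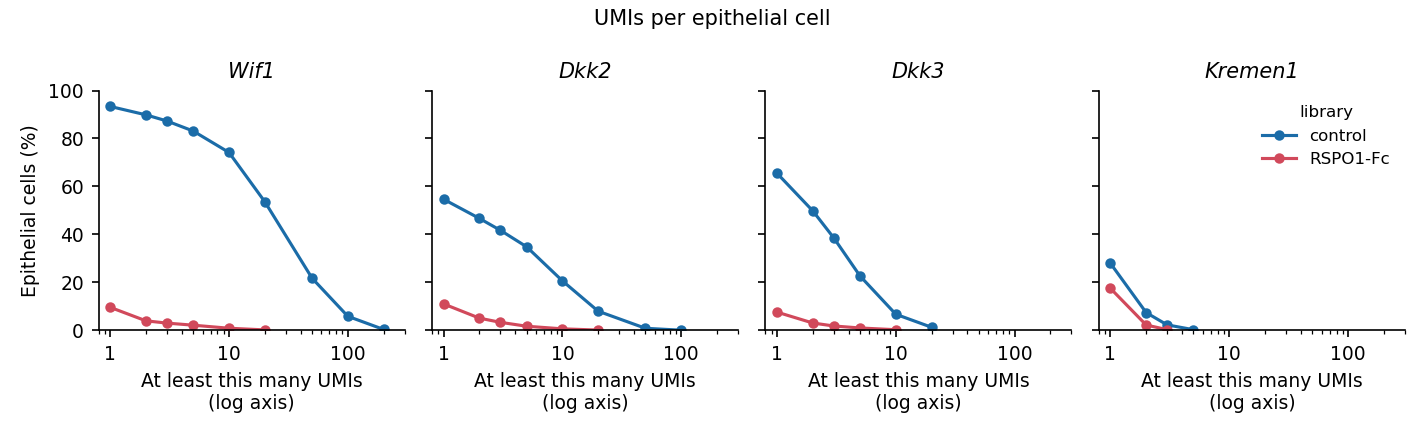
Share of epithelial cells (%) that carried at least the number of UMIs on the x axis (log axis), for Wif1, Dkk2, Dkk3 and Kremen1 in both libraries, without thinning. The Wif1 curve starts at 93.4% in control and 9.60% in RSPO1-Fc, and the Kremen1 curves lie closest together.

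The other 5 genes were low in epithelium, below 20 CPM in both libraries. Kremen1 had 729 UMIs in control and 552 in RSPO1-Fc cells, 10.9 and 7.85 CPM, a 1.39-fold lower level (1.24 to 1.55). With TMM scaling (trimmed mean of M values), which moved the median log2 ratio of all genes to 0.21, its log2 ratio was -0.12 in place of -0.43. It lay below the median gene in both, which a scaling factor shared by all genes could hardly change. Its thinned shares were 4.78% (3.86 to 5.85) and 3.60% (2.93 to 4.36), and macrophage-like control cells showed 6.13%. Sfrp5 had 55 control and 141 RSPO1-Fc UMIs, 0.822 and 2.01 CPM, 2.44-fold higher with RSPO1-Fc (1.77 to 3.39). Without control clusters 7 and 10, 36 control UMIs remained and the fold was 3.57 (2.46 to 5.30). Sfrp2 had 39 and 9 UMIs, 4.55-fold lower (2.17 to 10.7), and 11 of the 39 were in a single control cell. Sfrp1 had 47 and 2 UMIs, of which 42 lay in control clusters 7 and 10, all in cluster 10. Without them 5 and 2 UMIs were left, a ratio of 2.74 (0.449 to 28.8). Frzb, with 6 and 0 UMIs, kept 1 and 0 without them, and no fold is given for it. Without a level minimum 6 of the 8 genes were at least 2-fold lower, where 36.7% of all genes were, and Sfrp5 alone was at least 2-fold higher, where 12.8% were.

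**Figure D2:**
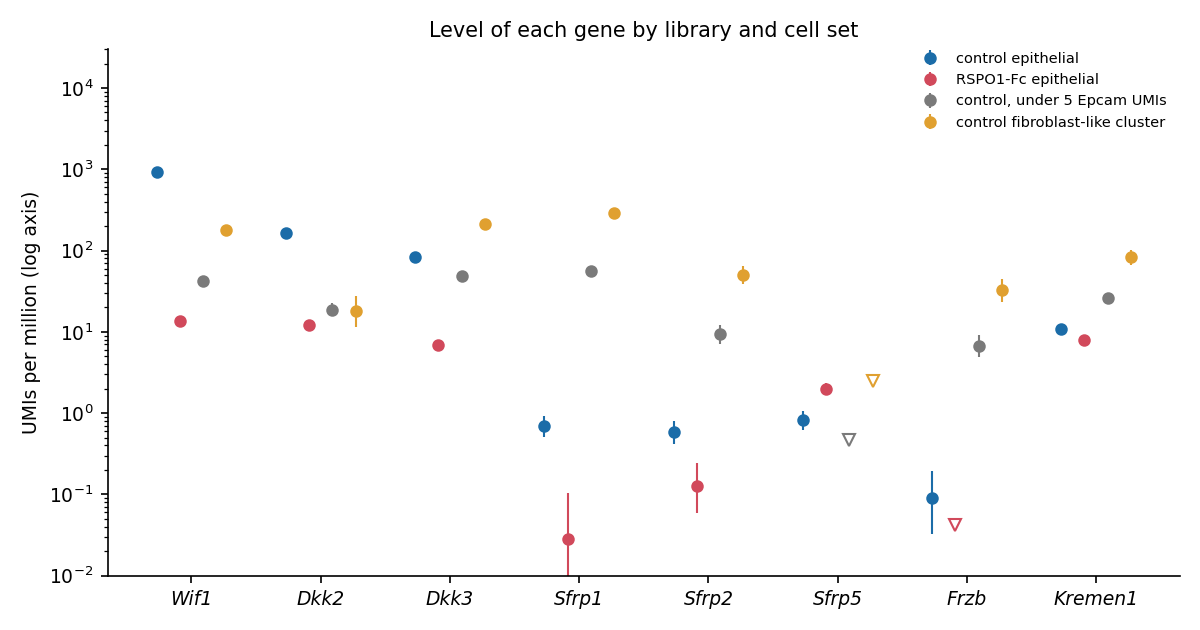
Level of each gene in CPM (log axis) in control epithelial, RSPO1-Fc epithelial, control non-epithelial and control fibroblast-like cells. Points are pooled levels of a cell set, bars are 95% counting intervals and open triangles are the level that 3 UMIs would give where 0 were counted. Wif1 is near 927 in control and 13.5 in RSPO1-Fc epithelium. Dkk3, Sfrp1, Sfrp2, Frzb and Kremen1 are highest in the fibroblast-like cells.

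The genes differed in which control cells carried them. Clusters of epithelial cells were made without the 8 genes and are given by number with their leading genes. Wif1 was highest in cluster 6 (115 cells, led by Dapl1 and Ngfr) at 1691 CPM (1648 to 1734), cluster 3 (284 cells, led by Pnliprp2) at 1486 CPM (1460 to 1513) and cluster 1 (464 cells, led by Flt1 and Slc10a2) at 1363 CPM (1344 to 1383). It followed at 927 CPM in cluster 2 (415 cells, led by Adamts9 and Gmpr) and 686 CPM in the cycling-like cluster 4 (251 cells). Wif1 was lowest in cluster 5 (194 cells, led by Car1, Lypd8 and Muc3) at 90.4 CPM (84.5 to 96.6) and cluster 8 (45 cells, led by Spink4, Clps and Lyz1, with Muc2 at 761 CPM) at 142 CPM (125 to 161). After thinning, 99.1% of cells in cluster 6 but 23.7% in cluster 5 and 46.7% in cluster 8 carried a Wif1 UMI. The 3 clusters highest in Wif1 were also the highest in the Wnt target Axin2, at 561, 490 and 391 CPM in clusters 6, 3 and 1, while clusters 8 and 5 were the lowest at 169 and 199.

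Dkk2 and Dkk3 peaked in different control clusters, but their clusters overlapped. Dkk2 was highest in clusters 6 and 1, at 432 CPM (410 to 454) and 401 CPM (390 to 411). These also held the most Sox11, a transcription factor gene, at 261 and 164 CPM. Dkk3 was present in both, at 147 CPM in cluster 6 and 61.9 CPM in cluster 1. In cluster 3 Dkk2 was 27.8 CPM and Dkk3 was at its highest, 244 CPM (234 to 255). Clusters 5 and 8, low in Wif1, kept Dkk2 at 160 and 98.5 CPM but had 30 and 0 Dkk3 UMIs. In cluster 8, 3 UMIs would have given 1.74 CPM. Cluster 9 (37 cells, led by Cib3) was the reverse, with Dkk3 at 195 CPM and Dkk2 at 7.58 CPM. Kremen1 ranged only from 4.64 CPM in cluster 8 to 36.8 CPM in cluster 9.

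**Figure D3:**
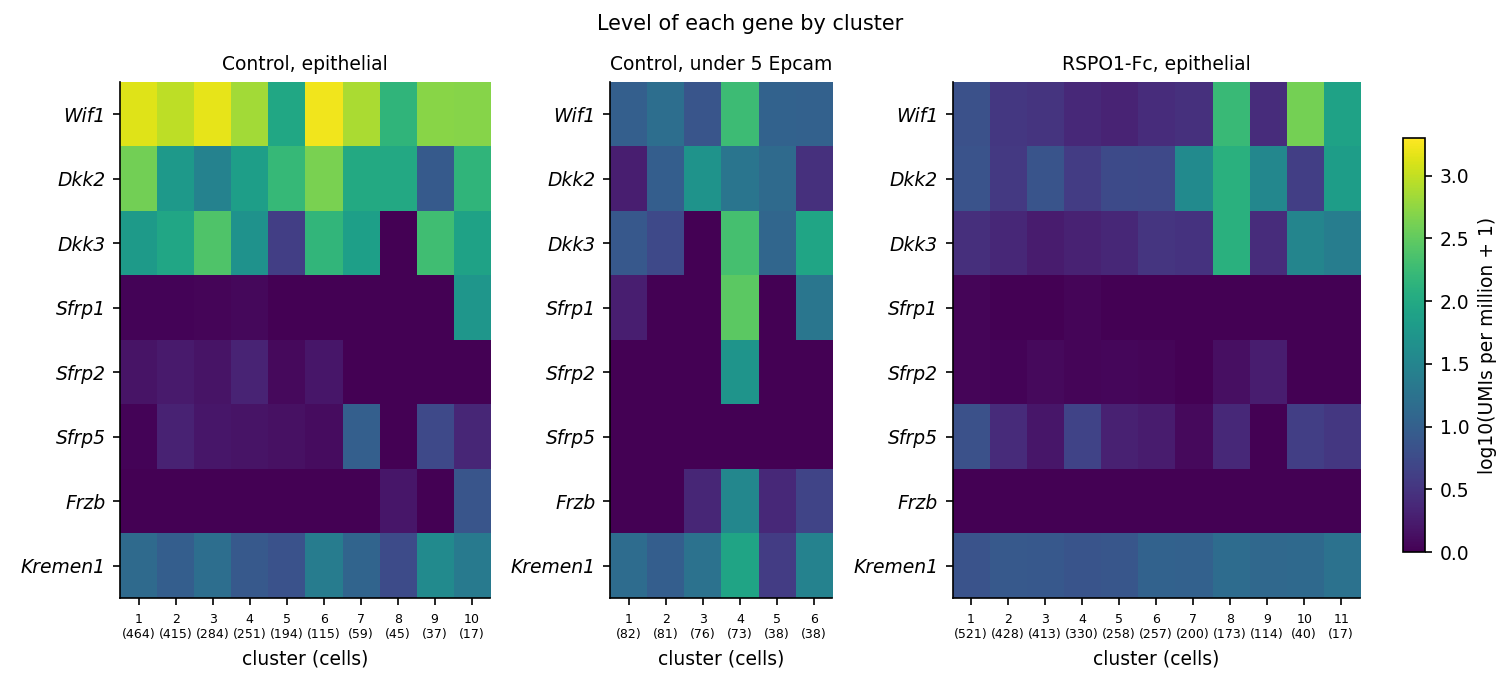
Level of the 8 genes, log10 of CPM plus 1, in clusters of control epithelial, control non-epithelial and RSPO1-Fc epithelial cells, with the number of cells under each cluster. Wif1 is above 90 in every control epithelial cluster, whereas with RSPO1-Fc it exceeds 6 in clusters 8, 10 and 11 alone.

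Of the 8 genes, 4 were instead higher outside the epithelium. In control non-epithelial cells Sfrp1 stood at 56.2 CPM against 0.702 CPM in epithelial cells (80.0-fold, 59.0 to 111), Frzb at 6.77 against 0.0896 (75.6-fold, 32.1 to 217), Sfrp2 at 9.38 against 0.582 (16.1-fold, 10.6 to 24.7) and Kremen1 at 26.2 against 10.9 (2.40-fold, 2.02 to 2.84). Of all 20913 genes compared 24.1% were at least 2-fold higher there. The epithelial Sfrp1 and Frzb UMIs lay mostly in clusters 7 and 10. Without those clusters 5 Sfrp1 UMIs were left in epithelium and the fold was 721 (306 to 2234), and 1 Frzb UMI was left with a fold of 435 (74.0 to 17550). Wif1 was 22.2-fold (19.7 to 25.1), Dkk2 8.74-fold (7.31 to 10.5) and Dkk3 1.71-fold (1.53 to 1.92) higher in epithelial cells. The Dkk3 fold is a pooled value that did not hold for each cell type. Fibroblast-like cells stood at 210 CPM and smooth muscle or pericyte-like cells at 85.2 CPM, against 84.1 CPM in epithelium. Macrophage-like cells stood at 5.62 CPM, and endothelial-like cells had 0 Dkk3 UMIs. Sfrp5 had 0 UMIs in the 388 cells and 55 in epithelium, where the interval put it at least 1.40-fold higher. Without clusters 7 and 10, 36 epithelial UMIs were left. The interval of the non-epithelial over epithelial ratio was then 0 to 1.07, so no difference was shown for Sfrp5.

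Apart from Dkk2, with 22 of 122 UMIs there, and Sfrp5, with 0, most of the non-epithelial signal lay in the fibroblast-like cluster (73 cells). It carried 354 of 365 non-epithelial Sfrp1 UMIs (293 CPM, 263 to 325), 61 of 61 for Sfrp2 (50.5 CPM), 39 of 44 for Frzb (32.3 CPM), 100 of 170 for Kremen1 (82.8 CPM), 253 of 320 for Dkk3 (210 CPM) and 219 of 271 for Wif1 (181 CPM). Dkk3 was found in 69 of the 73 cells, Kremen1 in 48 and Wif1 in 38, but Sfrp1 and Frzb in 22 each and Sfrp2 in 8. A single cell held 82 of the 219 Wif1 UMIs and another 80 of the 354 Sfrp1 UMIs. Macrophage-like cells (163) showed Wif1 at 12.0 CPM (8.13 to 17.2) and Dkk3 at 5.62 CPM, both far below the fibroblast-like levels. Endothelial-like cells (76) carried 77 of the 122 non-epithelial Dkk2 UMIs, at 48.9 CPM (38.6 to 61.2) and in 37 cells, with 0 Dkk3 UMIs. Smooth muscle or pericyte-like cells (38) carried Dkk3 at 85.2 CPM (62.2 to 114) and Kremen1 at 28.4 CPM, and Dkk2 with 1 UMI.

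Within the fibroblast-like cluster the Sfrp2 cells were a part of the Sfrp1 cells, while the other overlaps were partial. All 8 Sfrp2-positive cells were among the 22 with Sfrp1. Frzb was found in 14 of the 22 cells with Sfrp1 and 8 of the 51 without, and Wif1 in 16 of 22 and 22 of 51, so most of the 38 Wif1-positive cells had no Sfrp1 UMI. Split by Sfrp2, Wif1 was found in 4 of 8 and 34 of 65 cells, and Frzb in 3 of 8 and 19 of 65. Wif1 was 394 CPM in the cells with Sfrp1 and 75.7 CPM in those without, with the single high cell included. Dkk3 did not differ in this way, at 212 and 208 CPM. Kremen1 went the other way, at 52.3 and 98.0 CPM. The median depths of the cells with and without Sfrp1 were 14783 and 13673 UMIs.

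With RSPO1-Fc the remaining Wif1 was concentrated in few cells. Clusters 8, 10 and 11, taken because they had the highest Wif1 levels, held 230 of 2751 epithelial cells (8.36%) but 792 of the 949 Wif1 UMIs (83.5%), 385 of 483 Dkk3 UMIs (79.7%) and 388 of 866 Dkk2 UMIs (44.8%). Wif1 stood at 201 CPM (188 to 216) in them and 2.36 CPM (2.01 to 2.76) in the other 2521 cells, where 0.912% of thinned cells carried it. Cluster 8 (173 cells, led by Npy, Ptn, Pnliprp2 and Spock2) had all 3 of these genes, with Wif1 at 173 CPM, Dkk2 at 125 CPM and Dkk3 at 124 CPM. The Paneth-like cluster 10 (40 cells) had Wif1 at 409 CPM (361 to 461) and Dkk3 at 31.2 CPM but only 2 Dkk2 UMIs. The cycling-like cluster 11 (17 cells, led by Nts and Slurp1) had Wif1 at 79.0 CPM and Dkk2 at 67.0 CPM. Dkk2 was also 36.6 CPM in cluster 7 (200 cells, led by Igfbp7) and 32.6 CPM in cluster 9 (114 cells, led by Apob and Wnt7a), where Wif1 was 1.85 and 1.63 CPM. Sfrp5 was highest in clusters 1 and 4, at 5.51 and 3.63 CPM, which held 93 of its 141 UMIs.

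These cells belonged to the RSPO1-Fc culture by their sex genes. Xist had 0 UMIs in clusters 8, 10 and 11, and Ddx3y stood at 52.9, 56.2 and 38.3 CPM. Their medians of 14049, 13646.5 and 22611 UMIs lay below the library's 23548. Axin2 was 265 CPM in cluster 8 and 283 CPM in cluster 11, against 46.3 to 137 CPM in the other clusters. The clusters set apart by Axin2 did not include cluster 10, the highest in Wif1 at 409 CPM. Nkd1, another feedback target of β-catenin, was 928 CPM in cluster 8 and 835 CPM over all control epithelium. Wif1 in cluster 8, at 173 CPM, was still below the 927 CPM of control epithelium. With clusters 8, 10 and 11 left out, a step chosen after the data were seen, the log2 ratios between the libraries were -8.11 for Wif1, -4.33 for Dkk2 and -5.10 for Dkk3.

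Co-expression was read within each library. Shares came from cells thinned to 5000 UMIs, while correlations (r) used log-scaled levels from all UMIs of each cell, so they are not matched for depth. In control epithelium Dkk3 was found in 33.5% (31.1 to 35.9) of cells with Wif1 and 11.6% (8.30 to 15.6) of cells without, and log-scaled levels of the pair correlated with r = 0.41 over 1881 cells. Inside the clusters highest in Wif1 this was weak, with r of 0.16 in cluster 1, 0.02 in cluster 3 and 0.01 in cluster 6, and it was 0.27, 0.38 and 0.34 in clusters 2, 4 and 5. Dkk2 showed no stable relation to Wif1: it was found in 34.4% of cells with Wif1 and 39.5% of those without, a difference of -5.12 points (-11.2 to 0.797) that changed sign at a depth of 2500 UMIs (3.64 points, -0.866 to 7.96). Dkk3 was less frequent in cells with Dkk2, at 18.6% (15.7 to 21.7) of Dkk2-positive and 35.9% of Dkk2-negative cells, and the pair had r = -0.28. This held inside clusters 1, 2 and 6, with r of -0.29, -0.27 and -0.31, was -0.16 in cluster 4, and was near 0 in clusters 3, 5 and 9 (-0.06, -0.02 and 0.00). Of all control epithelial cells 32.9% carried Wif1 alone, 22.3% Wif1 with Dkk2, 21.6% Wif1 with Dkk3 and 6.22% all 3, while 8.61% carried none of them.

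With RSPO1-Fc 89.8% of epithelial cells carried none of the 3 and 1 cell carried all. Dkk3 was found in 37.0% (28.3 to 46.3) of the 119 cells with Wif1 and 1.79% of those without, with r = 0.49. Dkk2 was found in 8 of 119 and 121 of 2632 such cells, with overlapping intervals. Inside cluster 8 Wif1 and Dkk3 correlated with r = 0.32, whereas Dkk2 had r = -0.31 with Wif1 and -0.36 with Dkk3 over 173 cells. Over all RSPO1-Fc epithelial cells, where most carried neither, Dkk2 and Dkk3 had r = 0.06, with Dkk3 in 7 of the 129 Dkk2-positive cells. Cells share their library and its free RNA, so these correlations are descriptions.

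**Figure D4:**
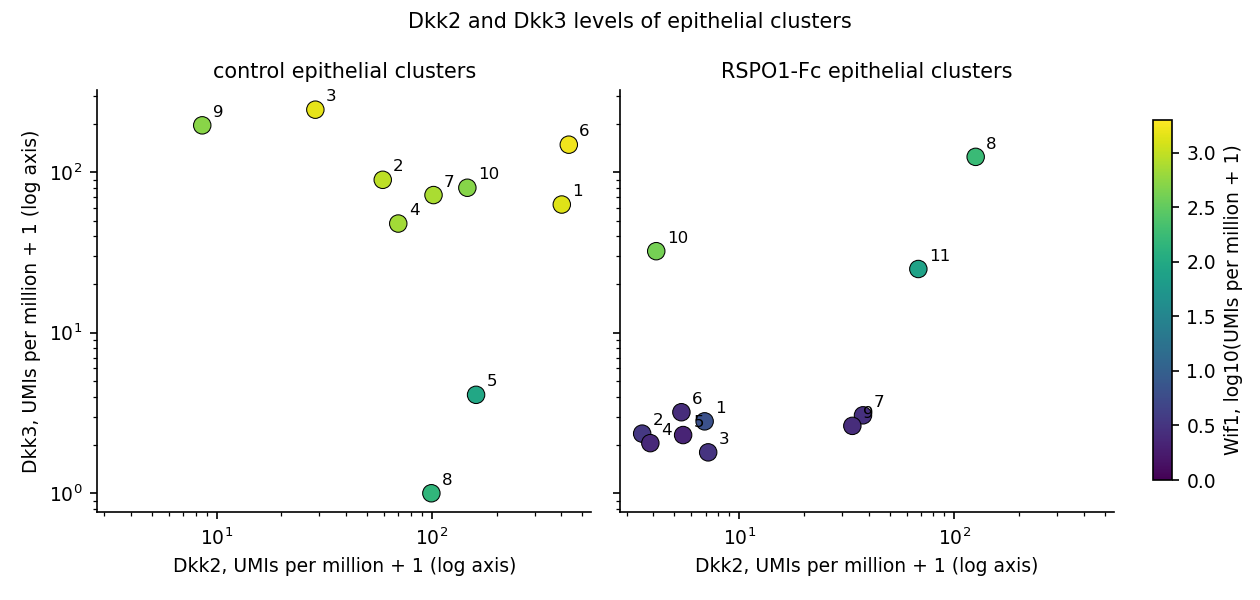
Dkk2 against Dkk3 level of each epithelial cluster, in CPM plus 1 (log axes), for the control and RSPO1-Fc libraries, with cluster numbers and with Wif1 as colour. Control clusters 5 and 8 have Dkk2 with little Dkk3, and control cluster 9 and RSPO1-Fc cluster 10 have Dkk3 with little Dkk2.

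Wif1 was also compared with receptors and cycling genes in the same thinned cells. In control epithelium it was found in 87.9% of the 486 cells with an Lgr5 UMI, the stem cell receptor for R-spondins, and 81.4% of those without. It was found in 86.2% of Axin2-positive and 73.3% of Axin2-negative cells. In cells with an Mki67 or Top2a UMI, both genes of proliferating cells, the share was 73.3% against 85.9%. Dkk2 was less frequent in Lgr5-positive cells, 28.2% against 37.7%, and Dkk3 was about even, 31.1% against 29.3%.

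The genes most like each member differed between Wif1, Dkk2 and Dkk3. Over 1881 control epithelial cells and 11809 genes, the highest correlations with Wif1 were those of Htra1 (r = 0.67), Ly6e, Ifitm3, Tcf4 and Nkd1, and the lowest that of Lgals4 (r = -0.71). Dkk2 was most like Tnfrsf11b (r = 0.63), S100a14, S100a11 and Anxa1. Dkk3 was most like Spock2 (r = 0.62), Mt3, Fth1, Mt4 and Tesc. With RSPO1-Fc, over 2751 cells, Wif1 was most like Lect2 (r = 0.60), Tesc, Pla2g2f, Notum and Nkd1, so Nkd1 was among the 5 nearest in both libraries. Dkk3 again had Spock2 and Tesc among its 5, led by Ptn (r = 0.62), and Dkk2 was led by Sox11 (r = 0.41).

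Other genes of the pathway were read from 6 lists in the same epithelial sums. Of 11 other secreted antagonists 2 reached 20 CPM and both were at least 2-fold lower with RSPO1-Fc: Notum, which removes the lipid from Wnt ligands, at 275 and 47.7 CPM (5.76-fold), and Igfbp4, at 267 and 63.8 CPM (4.19-fold). Of the membrane antagonists Znrf3 and Rnf43, which remove Frizzled receptors, were 3.45-fold and 2.32-fold lower, and the other 3 measured did not reach 20 CPM. The median log2 ratios were -2.28 for the secreted and -1.48 for the membrane antagonists, beside -0.18 for all genes.

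At 20 CPM or more, receptor genes went in both directions, while genes of ligands and their secretion were lower. Of 5 receptor genes Lgr5 (6.70-fold) and Lrp6, a target of Dkk proteins (58.2 and 26.0 CPM, 2.24-fold), were lower, Lgr4 was 2.35-fold higher, and Lrp5 and Ryk moved by less than 2-fold, with a median log2 ratio of -0.49. Of 3 genes of ligands and their secretion, Wnt10a was 14.4-fold lower (120 and 8.32 CPM) and Wnt6 5.03-fold lower (206 and 41.0 CPM). Wls, needed for ligand secretion, was 1.93-fold lower (109 and 56.7 CPM), and the median log2 ratio was -2.30. In control clusters Wnt6 was highest in cluster 6 at 652 CPM and Wnt10a in cluster 9 at 425 CPM, and both were lowest in cluster 8 at 5.79 and 4.06 CPM. No R-spondin gene reached the minimum. Of 12 Wnt target genes 7 were lower and 0 higher by 2-fold, where 18.7% and 7.23% of all genes were, with a median of -1.34. The 7 were Axin2, Nkd1, Lef1, Tcf7, Sp5, Prox1 and Tnfrsf19, with log2 ratios from -3.39 (Prox1) to -1.04 (Tnfrsf19). Ccnd1 was at -0.38, and Ascl2, Myc, Cd44 and Ephb2 had log2 ratios of 0.39, 0.22, 0.13 and 0.50.

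**Figure D5:**
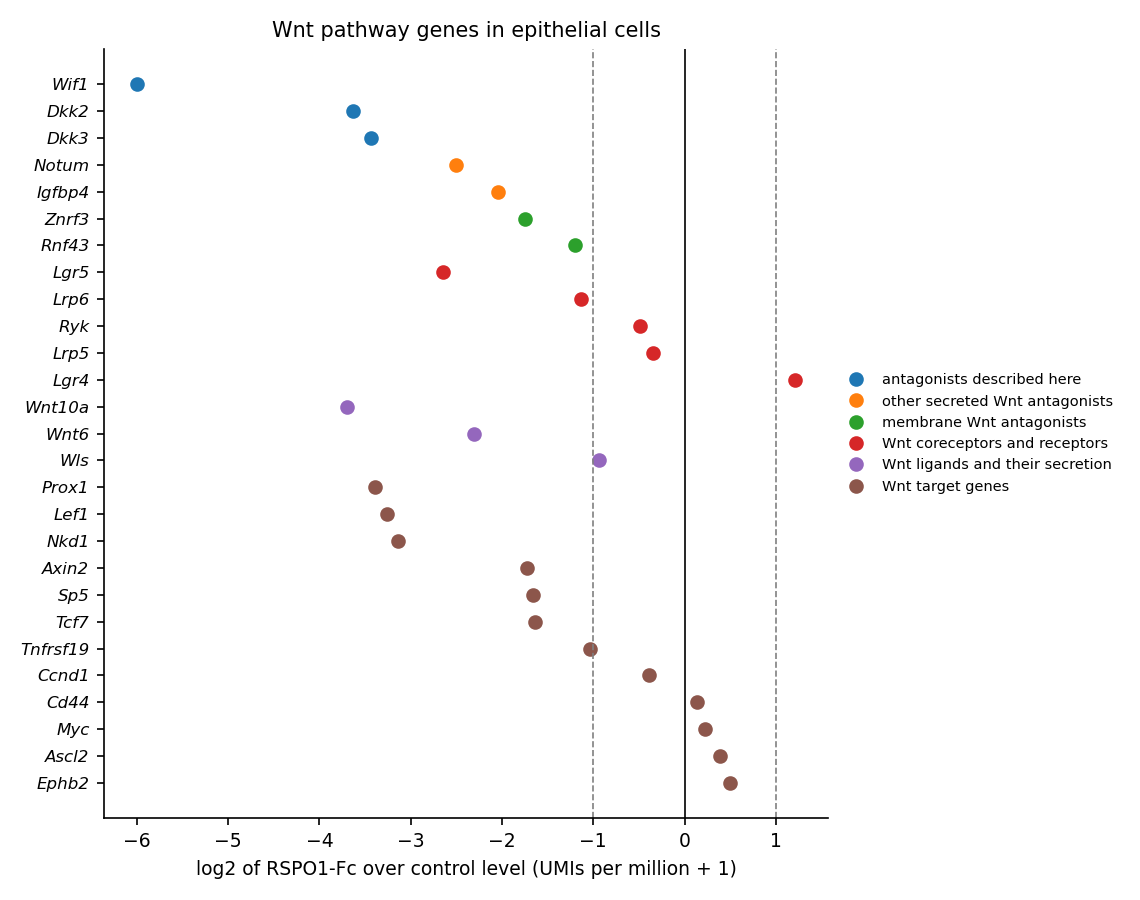
Log2 ratio of RSPO1-Fc over control level (CPM plus 1) in epithelial cells for Wnt pathway genes with at least 20 CPM in either library, coloured by list. Dashed lines mark a 2-fold difference, and Wif1, at -6.00, is the lowest of the genes shown.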

How the data were processed

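Single-cell 3′ libraries of 1 control and 1 RSPO1-Fc culture were analysed, grouped by the treatment label. The authors deposited unnormalized UMI counts for every gene in each barcode. Reagent Kit v2 was used per the labels' protocols, and mm10, Cell Ranger 2.1.1 and Seurat 3.1.1 are listed in the submitters' processing notes. Per the file headers, however, the control matrix names Cell Ranger 3.1.0, and its list of 6794880 barcodes differs from the 737280 of the RSPO1-Fc library. The 8 genes, the gene lists and the cell thresholds were chosen with earlier results of these data known.

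UMIs were summed over cells and scaled to 1000000 (CPM), over the 27514 shared genes for ratios between libraries and over all genes of the table elsewhere. Folds use these levels, and log2 ratios add 1 CPM. Intervals are exact Poisson for levels, Clopper-Pearson for shares and conditional binomial for folds, at 95%, and take each UMI as independent. Genes were called different at 2-fold with at least 20 CPM in either library. For shares each cell was thinned to 5000 UMIs, and 0 cells were shallower.

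Cells were clustered per library and class by the Leiden method on a shared-neighbour graph (scikit-learn 1.9.0, leidenalg 0.10.2, 2000 variable genes without the 8 members, 30 components, 15 neighbours, resolution 0.8). A cluster was named from at least 3 markers, by a rule settled after the clusters had been seen. Doublets were kept, and removal of the highest scrublet scores (scanpy 1.11.5, 41 and 61 cells) was an alternative, since the tool's own threshold marked 11 and 2. The named genes are the 8 members, list genes at 20 CPM or more, the 5 genes most correlated with each member seen in at least 10% of thinned control cells, and leading cluster genes; 1 gene under this rule is not reported here. Genes named outside this rule (Xist, Ddx3y, Hoxb13, Gata4, Muc2, Sox11, Lgals4 and overlapping genes) were chosen after their values were seen. Scripts were tested on simulated data. Alternatives covered scaling (edgeR 4.0.16, DESeq2 1.42.0), cell filters, doublets, free RNA, depth and pseudocount.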

Additional observations from a re-analysis of the deposited data

Results flagged for a closer look

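A pair of results came from data that the comparisons above do not use. Among the 16 RSPO1-Fc cells with under 5 Epcam UMIs, Wif1 stood at 202 CPM (134 to 292), 28 UMIs in 6 cells, above the 41.7 CPM of control cells with under 5 Epcam UMIs. All 6 epithelial markers were found in these 16 cells at a summed 6692 CPM, against 114 CPM in the control cells below that limit, and their Paneth markers summed to 13947 CPM. They also held 5 Dkk3 UMIs and 0 Dkk2 UMIs. In RSPO1-Fc barcodes with over 100 and up to 500 UMIs, too few for a cell, Sfrp2 stood at 5.72 CPM (4.42 to 7.27, 66 UMIs), above 1.96 CPM in such control barcodes and 0.128 CPM in RSPO1-Fc epithelial cells. The source of these UMIs was not tested.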

How the results depend on the processing

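The count of 3 members at least 2-fold lower with RSPO1-Fc was the same under 14 alternatives. Of these, leaving out shared barcodes removed 0 cells. Leaving out the RSPO1-Fc clusters highest in Wif1 could only lower the RSPO1-Fc level of Wif1 further. The count rose to 6 without a level minimum, where 36.7% of all genes were as much lower. The log2 ratios of Wif1, Dkk2 and Dkk3 kept their sign in each of 16 alternatives and ranged from -8.11 to -5.49, -4.33 to -3.29 and -5.10 to -2.91. The lowest values came from leaving out RSPO1-Fc clusters 8, 10 and 11, an alternative added after seeing the data, as was leaving out control clusters 7 and 10. The share of control epithelial cells with a Wif1 UMI was 93.4% without thinning, 71.8% at 2500 UMIs and 73.2% for at least 2 UMIs, as depth and the minimum set it. The difference in Dkk2 share by Wif1 was -16.9 points without thinning, 3.64 at 2500 UMIs and 5.12 for at least 2 UMIs; the cause was not tested. The count of 4 members higher outside the epithelium was the same in 5 alternatives. Depth limits Sfrp1, Sfrp2, Sfrp5 and Frzb, with 55 or fewer control epithelial UMIs each. No paired analysis was possible because each group held 1 library.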
